A study of Homo sapiens with 8 samples.

Results

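Genes for amino acid transporters were examined in SKOV3, a human ovarian cancer cell line. The members are the genes of the solute carrier (SLC) families SLC1, SLC3, SLC7, SLC36, SLC38 and SLC43, taken by gene name from the deposited tables with SLC7A11 left out. This gave 39 of the 22554 features. Messenger RNA had been sequenced from 8 samples. In the LDL group, 4 samples had received low-density lipoprotein (LDL), the main cholesterol carrier of blood, at 50 µg/mL for 48 h. The control group of 4 samples was kept in ordinary medium. All 8 grew in McCoy's 5A medium with fetal bovine serum, and serum brings lipoproteins of its own. The work used 1 cell line, and nothing in the labels tells whether the 4 samples of a group came from 4 cultures. The p-values therefore weigh a difference against sample-to-sample spread that could be technical.

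Amino acids cross cell membranes mainly through carriers. SLC3A2 encodes a heavy chain that brings light chains of the SLC7 family to the cell surface, where the pair swaps one amino acid for another. Carriers of SLC1 and SLC38 use the sodium gradient, and SLC7A1 lets in arginine and lysine. Others sit on lysosomes, where SLC38A9 also reports arginine to the growth kinase complex mTORC1. Tumour cells are known for high levels of SLC7A5, which carries leucine, and of SLC1A5, which carries glutamine.

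The promoter bases of SLC7A1 and SLC7A5 are shown because SLC7A1 had the smallest p among the members and SLC7A5, the main light chain, held the highest count. Both are the 250 bases before the RefSeq start on GRCh38.p14, read 5′ to 3′ on the minus strand, where both genes lie. SLC7A1 is at chr13:29595689-29595938 and SLC7A5 at chr16:87869508-87869757. Capitals mark the 1 motif match in them.
SLC7A1: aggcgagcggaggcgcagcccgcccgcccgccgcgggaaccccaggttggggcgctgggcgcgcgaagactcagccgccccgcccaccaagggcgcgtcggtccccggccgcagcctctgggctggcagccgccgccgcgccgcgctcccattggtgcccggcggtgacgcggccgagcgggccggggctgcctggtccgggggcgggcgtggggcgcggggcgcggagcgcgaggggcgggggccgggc
SLC7A5: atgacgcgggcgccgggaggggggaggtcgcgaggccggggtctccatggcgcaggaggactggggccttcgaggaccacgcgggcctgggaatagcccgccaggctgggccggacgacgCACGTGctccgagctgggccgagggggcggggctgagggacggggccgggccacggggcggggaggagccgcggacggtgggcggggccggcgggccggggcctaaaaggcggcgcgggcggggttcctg
The windows were searched on both strands for the amino acid response element (TGATGNAA), the E-box (CACGTG) and a sterol regulatory element (TCACNCCAC), motifs picked after the expression values were known. SLC7A5 held an E-box from position -130 to -125 before the start, and SLC7A1 held none of the 3. RefSeq gave 53 windows for 31 of the 39 members, since some genes have more than 1 start. An E-box was in 8 of these windows (15.1%), against 6.34% of all 35116 promoter windows. The response element was in 2 windows (3.77% against 3.14%), those of SLC1A3 and SLC1A5, and the sterol element in 1 (1.89% against 0.883%), that of SLC1A4. These are matches of letters only, and sites outside the 250 bases before a start could not be found. The SLC7A1 window was 84.4% G or C and that of SLC7A5 79.6%.

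Total counts ran from 34682501 to 36780334 in the LDL samples and from 37189698 to 44883561 in the control samples, so each LDL library was shallower than each control library. The cells matched the line's label: ERBB2, which the line carries amplified, was at 468.5 to 669.9 FPKM (fragments adjusted for the length of the gene and the size of the library) in LDL and 512.7 to 573.4 FPKM in control samples, and CDKN2A, which the line has lost, had a count of 0 in all 8. Keratin genes and PAX8 were high, while WT1 and MUC16 were near 0, with means of 0.175 and 0.66 CPM (counts scaled to library depth). Among 10 marker genes of leukocytes, endothelium, liver and neural cells only CD68 exceeded a count of 45 in any library, and their summed level was 27.7 to 30.1 FPKM in LDL and 21.5 to 27.8 FPKM in control samples, nearly all of it CD68. In bulk samples, fewer cells of a kind and less RNA per cell cannot be told apart. LDL samples 1 and 4 stood apart: in library pairs of the LDL group that held either, a chi-square comparison of the counts gave 17.4 to 28.8 per degree of freedom, against 6.73 between LDL samples 2 and 3 and 8.46 to 14.1 between control libraries. For several members, values without one or both of them are given.

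A mean of at least 1 FPKM over the 8 samples was reached by 19 of the 39 members and at least 10 FPKM by 8. The order at the top was SLC3A2 at 235.7, SLC7A5 at 189.8, SLC1A5 at 62.8, SLC38A2 at 43.7, SLC38A10 at 35.5, SLC38A1 at 21.4, SLC7A1 at 18.2 and SLC7A7 at 10.6 FPKM. SLC3A2 was 249th and SLC7A5 327th by mean FPKM of all 22554 features. Together these 2 genes made up 57.8% to 64.8% of the summed FPKM of all members in LDL samples and 61.7% to 65.7% in control samples.

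**Figure D1:**
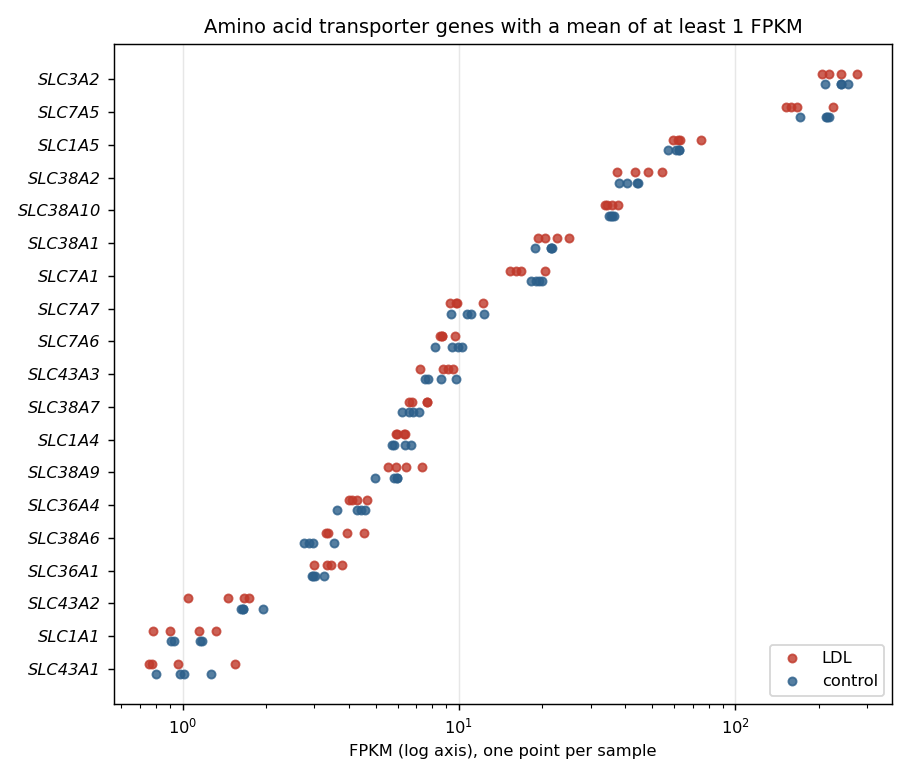
FPKM on a log axis for the 19 members with a mean of at least 1 FPKM, 1 point per sample, LDL samples above control samples in each row. SLC3A2 and SLC7A5 lie at or above 152.2 FPKM in all 8 samples, and the points of both groups overlap in every row.

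Neighbours in this order were not always apart. SLC3A2 ran from 205.2 to 275.4 FPKM and SLC7A5 from 152.2 to 226.1 FPKM over the 8 samples, so their ranges overlapped, although SLC3A2 was higher in each sample. SLC1A5, at 57.1 to 75.2 FPKM, lay below both and above all other members in every sample. SLC38A2, at 37.4 to 54.2 FPKM, overlapped SLC38A10, at 33.6 to 37.6 FPKM, in range. SLC38A1, at 18.8 to 25.1 FPKM, and SLC7A1, at 15.3 to 20.5 FPKM, overlapped too.

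At the low end, SLC7A3, SLC7A13, SLC36A2 and SLC38A11 were not counted in any library. A count of 0 is compatible with up to 3 counts, which is 0.0816 to 0.0865 CPM in LDL and 0.0668 to 0.0807 CPM in control libraries. Another 10 members had counts of at most 20 in any library, among them the glutamate carriers SLC1A2 and SLC1A6 and the light chains SLC7A8, SLC7A9 and SLC7A10. These 14 members did not pass the filter on low counts, and 25 of 39 were tested. The tested set includes 6 members below 1 FPKM, SLC38A5 the highest of them at 0.818 FPKM and SLC43A1, at 1.015 FPKM, the lowest above that line.

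No member differed between LDL and control samples at the threshold. In the quasi-likelihood test of edgeR over 15432 genes, 0 of the 25 tested members had an adjusted p under 0.05, where 10 of all genes (0.0648%) did. DESeq2 called 0 of 35 members, against 0.219% of all genes, and limma voom 0 of 25, against 0.0648%. Members of very low count, such as SLC1A2 and SLC7A4, got no adjusted p in DESeq2 and could not be called. The DESeq2 share of all genes was taken in the same way. At an unadjusted p under 0.05 there was 1 member, SLC7A1, or 4.0% of those tested, against 5.59% of all genes; DESeq2 also gave SLC7A1 alone, against 4.8% of all genes. Limma on log2(FPKM + 1) gave SLC38A6 in its place, against 6.16% of all genes. In 0 of the 25 were the groups free of overlap, against 3.45% of all genes. The median log2 fold change was 0.029 over the members and 0.006 over all genes, with 14 members (56.0%) above 0, against 52.3% of all genes. Without LDL samples 1 and 4 there were 8 of 27 members above 0, and without LDL sample 3 there were 22 of 26.

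Among the 19 members of at least 1 FPKM the fitted LDL-over-control ratio ran from 0.842 to 1.139. In the fit on all 8 samples the 95% intervals of the ratio, each for a single gene, all lay between 0.671 and 1.404. A change of 1.5-fold either way was outside each of these 19 intervals. The lowest bound, 0.671 for SLC7A5, was close to that limit. Intervals were not worked out with samples left out, where SLC7A5 reached a log2 fold change of -0.36 and SLC43A2 -0.32. The low members were less certain: SLC3A1, with a ratio of 1.255, had an interval from 0.274 to 5.743, and SLC1A3 and SLC1A7 had intervals up to 2.051 and 2.617. For SLC3A1 a change of 2-fold either way lay inside the interval. For SLC1A3 and SLC1A7 a 2-fold increase did, while their lower bounds were 0.778 and 0.791. In 2 simulated sets with 200 changed genes, 50 at each fold, the test had called 57.0% of 1.5-fold changes and 79.0% of 2-fold changes. Of the calls there, 7.76% were false. The real data gave 10 calls over all genes, and fewer changed genes make the adjusted threshold stricter, so these rates may be too high for them.

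**Figure D2:**
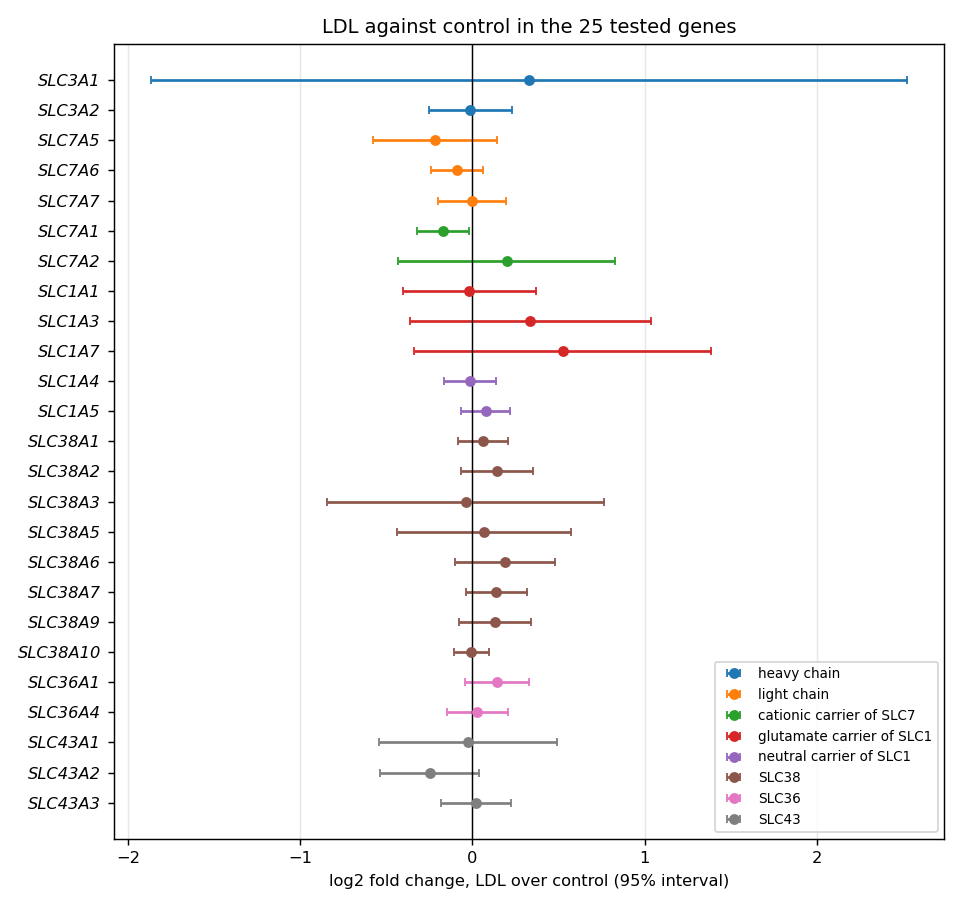
Log2 fold change of LDL over control with its 95% interval for the 25 tested members, by role. SLC7A1 is the 1 member whose interval leaves out 0 (-0.32 to -0.020); its adjusted p was 0.864.

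Of the cationic carriers, SLC7A1 and SLC7A2 were tested. SLC7A1 (ENSG00000139514) spans bases 29509410 to 29595688 of chromosome 13 in GRCh38, minus strand, with no annotated gene overlapping it. Its level was 154.3, 118.8, 124.6 and 129.5 CPM in LDL samples 1 to 4, against 139.6, 147.2, 155.9 and 150.6 CPM in control samples 1 to 4. LDL samples 2, 3 and 4 lay below all 4 control samples, while LDL sample 1 lay among them, so the groups overlapped. The means were 131.8 ± 15.6 CPM in LDL and 148.3 ± 6.82 CPM in control samples (SD, n = 4 each). The ratio was 0.889 (log2 fold change -0.17, SE 0.071, edgeR unadjusted p = 0.0293, adjusted p = 0.864, lower in 3 of 4 LDL samples), which missed the threshold.

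The value of SLC7A1 turned on LDL sample 1. With that sample left out, the edgeR adjusted p was 0.0279 at a log2 fold change of -0.25, and SLC7A1 was then the 1 member called of 26 tested, against 149 of 15625 genes (0.954%). Without LDL samples 1 and 4 it was -0.29 (adjusted p = 0.00624), again the 1 member called, of 27, against 248 of 15944 genes (1.56%). These fits also called many more genes elsewhere. Lower groups free of overlap without LDL sample 1 were found for 7.11% of all genes tested, and for SLC7A1 alone among the 25 members. With any 1 of the other 7 samples left out, SLC7A1 had log2 fold changes from -0.20 to -0.13 and adjusted p-values of at least 0.947.

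**Figure D3:**
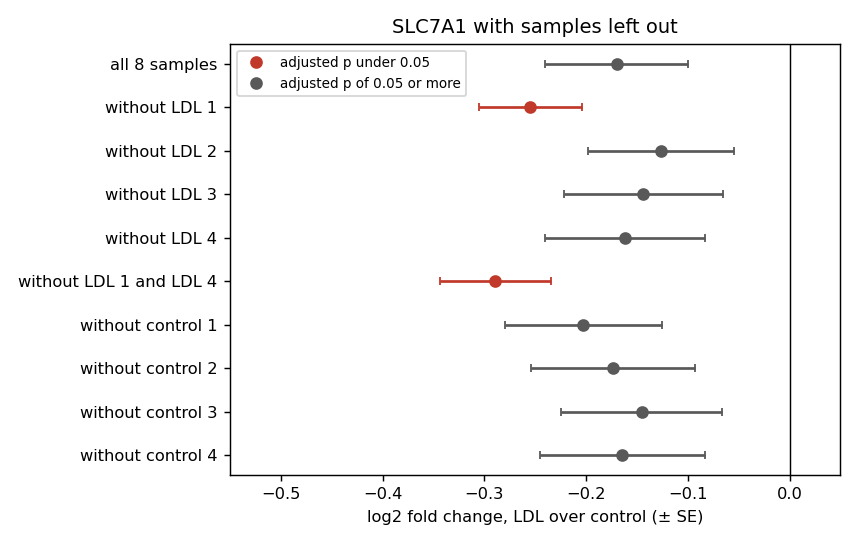
Log2 fold change of SLC7A1, LDL over control, with its SE, in fits on all 8 samples and with samples left out. All 10 values lie below 0, from -0.29 to -0.13, and the 2 fits that leave out LDL sample 1 are those past the threshold.

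SLC7A2, a second cationic carrier, stood far lower than SLC7A1, at 0.236 FPKM in LDL and 0.205 FPKM in control samples, against 17.2 and 19.2 FPKM for SLC7A1 (n = 4 each). It ran from 1.54 to 2.57 CPM in LDL and from 0.827 to 2.18 CPM in control samples (log2 fold change 0.20, edgeR adjusted p = 0.954). Its log2 fold change was 0.020 without LDL sample 1, -0.10 without LDL samples 1 and 4, and -0.020 without control sample 2. SLC7A4 and SLC7A14 had counts of at most 7 in any library and SLC7A3 had none.

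The heavy chain gene SLC3A2 (ENSG00000168003) spans bases 62856102 to 62888875 of chromosome 11, plus strand. It had 414.3, 503.6, 471.7 and 589.2 CPM in LDL samples 1 to 4, against 527.6, 438.9, 507.2 and 522.8 CPM in control samples 1 to 4. LDL sample 1 was the lowest of all 8 and LDL sample 4 the highest, with the control samples between them. The means were 494.7 ± 73.0 CPM in LDL and 499.1 ± 41.1 CPM in control samples (SD, n = 4 each; log2 fold change -0.013, SE 0.106, edgeR adjusted p = 0.993). SLC3A1, the heavy chain of the kidney and gut, had a count of 0 in LDL sample 4 and at most 73 elsewhere.

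SLC7A5 (ENSG00000103257; chromosome 16, bases 87830023 to 87869488, minus strand) pairs with SLC3A2 to take up leucine and other large neutral amino acids. It had 712.7, 804.7, 762.3 and 1080 CPM in LDL samples 1 to 4, against 1031, 818.2, 1037 and 1017 CPM in control samples 1 to 4. LDL samples 1, 2 and 3 lay below every control sample and LDL sample 4 above every one. The means were 839.8 ± 164.2 CPM in LDL and 975.7 ± 105.3 CPM in control samples (SD, n = 4 each; ratio 0.861, log2 fold change -0.22, SE 0.15, edgeR adjusted p = 0.901). Only LDL sample 4 made the groups overlap, so that they lie apart without it was fixed in advance and adds no support. The share of all genes that come apart when it is dropped was not worked out. The fit lacking LDL sample 4 put SLC7A5 at -0.36 on the log2 scale (edgeR unadjusted p = 0.00153, adjusted p over all genes 0.302). In that fit 5.26% of all genes had an unadjusted p under 0.05. Partial copies of the gene exist as the pseudogenes SLC7A5P1 and SLC7A5P2, neither of which has a row in the tables, and how reads shared with them were counted is not given in the sources used here.

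**Figure D4:**
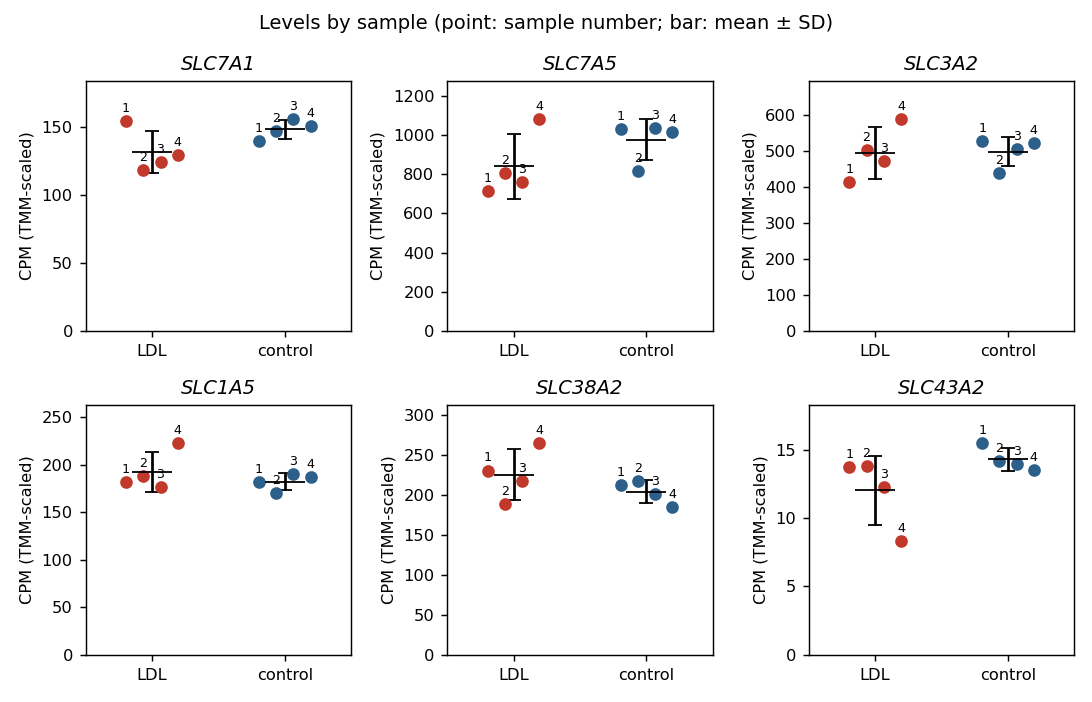
CPM by sample for 6 members, LDL samples left of control samples, numbered 1 to 4, with the mean and SD of each group (n = 4 each); each axis starts at 0. LDL sample 1 is the highest LDL sample for SLC7A1, and LDL sample 4 is the highest for SLC7A5, SLC3A2, SLC1A5 and SLC38A2 and the lowest for SLC43A2.

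Both chains were low in control sample 2 and high in LDL sample 4. Their ratio within a sample, a measure taken up after the values were seen and given without a test, was 0.742, 0.697, 0.729 and 0.821 (FPKM of SLC7A5 over FPKM of SLC3A2) in LDL samples 1 to 4, against 0.85, 0.81, 0.892 and 0.881 in control samples 1 to 4. LDL samples 1, 2 and 3 lay below every control sample, and LDL sample 4 lay just above control sample 2. The means were 0.747 ± 0.0527 in LDL and 0.858 ± 0.0365 in control samples (SD, n = 4 each). With counts in place of FPKM the ratio was 1.598 to 1.832 in LDL and 1.864 to 2.044 in control samples. FPKM and counts thus differ on whether the groups overlap, and the share of other gene pairs whose groups stay apart was not worked out.

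**Figure D5:**
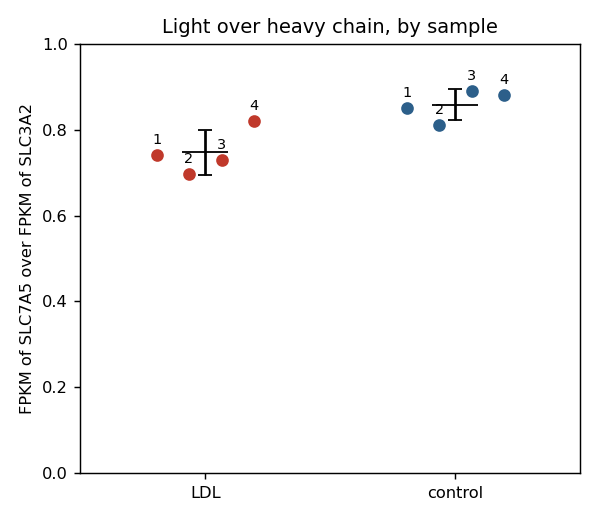
FPKM of SLC7A5 divided by FPKM of SLC3A2 in each sample, LDL left of control, with mean and SD (n = 4 each). The LDL samples lie at 0.697 to 0.821 and the control samples at 0.81 to 0.892.

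Among the members known as light chains of SLC3A2, SLC7A5 was the most abundant; SLC7A11, a further partner, was not among the members. SLC7A5 made up 88.6% to 91.5% of the summed FPKM of SLC7A5, SLC7A6, SLC7A7, SLC7A8 and SLC7A10 in LDL samples and 90.4% to 91.3% in control samples. SLC7A6 and SLC7A7, which exchange cationic for neutral amino acids, shared nearly all of the rest. SLC7A6 was at 54.0 ± 1.46 CPM in LDL and 57.5 ± 5.78 CPM in control samples (log2 fold change -0.090, edgeR adjusted p = 0.907, n = 4 each). SLC7A7, the gene mutated in lysinuric protein intolerance, was at 24.4 ± 2.82 CPM in LDL and 24.5 ± 2.38 CPM in control samples (log2 fold change -0.0027, edgeR adjusted p = 0.997, n = 4 each). SLC7A6 overlaps SLC7A6OS on the other strand.

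In the SLC1 family the neutral carriers SLC1A5 and SLC1A4 were well detected, while of the glutamate carriers only SLC1A1 reached a mean of 1 FPKM. SLC1A5, the glutamine exchanger, had 181.9, 188.2, 176.9 and 223.2 CPM in LDL samples 1 to 4, against 181.8, 170.7, 190.6 and 186.9 CPM in control samples 1 to 4. LDL sample 4 was above all other samples and the other LDL samples lay within the control range. The means were 192.5 ± 20.9 CPM in LDL and 182.5 ± 8.65 CPM in control samples (SD, n = 4 each; log2 fold change 0.077, edgeR adjusted p = 0.925), and this became -0.0015 when LDL sample 4 was left out. SLC1A4, a carrier of alanine and serine, ran from 28.4 to 30.5 CPM in LDL and from 27.2 to 32.1 CPM in control samples (log2 fold change -0.014, edgeR adjusted p = 0.99).

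SLC1A1, a glutamate and aspartate carrier, was the most abundant of its kind, at 1.039 ± 0.244 FPKM in LDL and 1.04 ± 0.141 FPKM in control samples (SD, n = 4 each). The glial carrier SLC1A3 was at 0.409 and 0.302 FPKM and SLC1A7 at 0.235 and 0.161 FPKM in LDL and control samples. Their log2 fold changes of 0.34 and 0.52 had standard errors of 0.33 and 0.41 (edgeR adjusted p = 0.932 and 0.907). The value of SLC1A3 rested on LDL sample 4, being 0.0069 without it and -0.21 without LDL samples 1 and 4. For SLC1A7, LDL samples 3 and 4 lay above every control sample. Its log2 fold change ran from 0.20 without LDL sample 3 to 0.68 without LDL sample 2 when 1 sample was left out. A change of at least 1.2-fold either way was fitted for 3 of the 25 members, SLC1A3, SLC1A7 and SLC3A1, or 12.0%, against 12.8% of all genes.

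The SLC38 family had 11 members, of which 8 were tested, 6 with a log2 fold change above 0 and 2 below, with 52.3% of all genes above 0, and a median of 0.098. With each sample left out, from 5 (without LDL sample 2) to 8 (without LDL sample 3) lay above 0, with medians from 0.061 to 0.14. Without LDL samples 1 and 4 there were 4 above and 4 below, with a median of 0.023. SLC38A2, a sodium-coupled carrier of small neutral amino acids that cells make in larger amounts when starved of amino acids, had 230.3, 187.9, 217.3 and 264.8 CPM in LDL samples 1 to 4, against 212.5, 217.4, 200.7 and 185.1 CPM in control samples 1 to 4. LDL samples 1 and 4 lay above every control sample and LDL samples 2 and 3 within their range. The log2 fold change was 0.14 (SE 0.094, edgeR unadjusted p = 0.161, adjusted p = 0.884), and without LDL samples 1 and 4 it was -0.013. With each sample left out it ran from 0.055 (without LDL sample 4) to 0.217 (without LDL sample 2), at edgeR adjusted p-values of at least 0.712.

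SLC38A1, the neighbouring gene on chromosome 12 with the same kind of transport, was at 184.0 ± 18.5 CPM in LDL and 176.2 ± 11.8 CPM in control samples (SD, n = 4 each; log2 fold change 0.062, edgeR adjusted p = 0.942). SLC38A1 lies from 46183063 to 46270017 and SLC38A2 from 46358189 to 46372867, both on the minus strand. SLC38A4, close by on the same strand, had counts of at most 8. SLC38A10 had the smallest standard error of the tested members, 0.048, and was at 145.9 ± 6.39 CPM in LDL and 146.5 ± 2.6 CPM in control samples (SD, n = 4 each; log2 fold change -0.0058, edgeR adjusted p = 0.993).

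SLC38A7, which moves glutamine out of lysosomes, had 35.2, 32.2, 35.6 and 28.99 CPM in LDL samples 1 to 4, against 28.3, 27.1, 31.0 and 33.4 CPM in control samples 1 to 4. LDL samples 1 and 3 lay above all control samples and the others did not (log2 fold change 0.14, SE 0.084, edgeR adjusted p = 0.884). SLC38A9, the lysosomal arginine sensor, ran from 13.6 to 16.9 CPM in LDL and from 12.2 to 14.6 CPM in control samples (log2 fold change 0.13, edgeR adjusted p = 0.906), and its log2 fold change was 0.066 without LDL sample 4 and 0.055 without LDL samples 1 and 4. SLC38A6 ran from 5.64 to 7.12 CPM in LDL and from 4.97 to 6.11 CPM in control samples (log2 fold change 0.19, edgeR adjusted p = 0.899). For SLC38A6 the value was 0.11 without LDL sample 4, and 0.31 with limma on log2(FPKM + 0.1) (unadjusted p = 0.0248, adjusted p = 0.749). SLC38A6 and SLC38A9 each overlap a gene on the other strand, TRMT5 and DDX4, and whether counting used strand is not given in the sources used here.

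Of the proton-coupled SLC36 carriers, SLC36A1 and SLC36A4 were expressed. SLC36A1, found on lysosomes, was at 19.6 ± 1.6 CPM in LDL and 17.8 ± 1.31 CPM in control samples (SD, n = 4 each; log2 fold change 0.14, SE 0.089, edgeR adjusted p = 0.884). LDL sample 4, at 21.8 CPM, was the 1 LDL sample above all control samples, and without it the log2 fold change of SLC36A1 was 0.089; without LDL samples 1 and 4 it was 0.057. SLC36A4 was at 26.5 ± 1.54 CPM in LDL and 25.99 ± 2.67 CPM in control samples (log2 fold change 0.029, edgeR adjusted p = 0.979, n = 4 each). SLC36A2 had no count and SLC36A3 at most 5 in any library.

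SLC43A2, a carrier of branched-chain and other neutral amino acids that needs no ion gradient, had the second smallest p. It had 13.7, 13.8, 12.3 and 8.35 CPM in LDL samples 1 to 4, against 15.5, 14.2, 13.97 and 13.5 CPM in control samples 1 to 4. LDL samples 3 and 4 lay below every control sample, LDL sample 4 farthest. The log2 fold change was -0.25 (SE 0.13, edgeR unadjusted p = 0.0835, adjusted p = 0.882), and without LDL sample 4 it was -0.11. Its relative SLC43A1 was at 2.53 ± 0.878 CPM in LDL and 2.58 ± 0.55 CPM in control samples (SD, n = 4 each; log2 fold change -0.027, edgeR adjusted p = 0.993). SLC43A3, which carries nucleobases rather than amino acids, was at 21.7 ± 3.03 CPM in LDL and 21.4 ± 1.28 CPM in control samples (log2 fold change 0.020, edgeR adjusted p = 0.989, n = 4 each).

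Several members are known targets of ATF4, the transcription factor of the amino acid stress response. Of 8 such members 7 were tested, 0 were called (0.0648% of all genes were), and 2 had a log2 fold change above 0 and 5 below (median -0.014), with 52.3% of all genes above 0. With 1 sample left out, 2 to 5 of them lay above 0, most without LDL sample 3, and leaving out LDL samples 1 and 4 gave 0 above 0 and the call of SLC7A1. LDL sample 4 was the highest LDL sample for 5 of the 7, by 1.42-fold over the mean of the other 3 for SLC7A5, 1.27-fold for SLC3A2, 1.22-fold for SLC1A5 and 1.06-fold for SLC1A4; the fifth was SLC38A2. For SLC7A1 that ratio was 0.977 and for SLC43A1 0.653. Among all 25 tested members LDL sample 4 was the highest LDL sample for 13, or 52.0%, against 28.6% of all genes. On the log2 scale, the mean level of 12 other ATF4 pathway genes relative to all libraries was 0.213 in LDL sample 4. It lay between 0.020 and 0.041 in LDL samples 1 to 3, and between -0.099 and -0.047 in controls. The part of this difference in the values of the members was not tested.

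Other genes of amino acid handling were read from lists. SESN2, ASNS and PSAT1 stand in 2 of them. In the list of 12 ATF4 pathway genes 0 were called, 4 had an unadjusted p under 0.05 and 8 lay above 0 (median log2 fold change 0.17), where 5.59% and 52.3% of all genes did. Leaving out LDL sample 1 gave 6 genes of the list at an unadjusted p under 0.05 (14.5% of all genes in that fit) and a median of 0.195. The list had 5 such genes (4.52% of all genes) and a median of 0.196 without LDL sample 3. It had 1 (5.26% of all genes) and a median of 0.073 without LDL sample 4, and 1 to 2 without control sample 1, 2 or 3. DDIT4, an inhibitor of mTORC1, had the smallest p there, at 41.9 ± 6.44 CPM in LDL and 32.6 ± 4.02 CPM in control samples (SD, n = 4 each; log2 fold change 0.36, edgeR adjusted p = 0.669). Of 28 tested genes of amino acid sensing 0 were called, and NPRL3, a brake on mTORC1, had the smallest p, at 139.7 ± 2.04 CPM in LDL and 126.2 ± 6.25 CPM in control samples (log2 fold change 0.15, edgeR adjusted p = 0.732, n = 4 each). Of 19 genes of glutamine, asparagine, serine and glycine metabolism 0 were called, with BCAT2, a branched-chain aminotransferase, at a log2 fold change of 0.14 (edgeR adjusted p = 0.876). Of 16 tested carriers from other families 0 were called, with SLC25A15, the mitochondrial ornithine carrier, at -0.14 (edgeR adjusted p = 0.879). The medians of these 3 lists were 0.026, 0.043 and -0.030.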

How the data were processed

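Per the labels' protocols, libraries came from a stranded mRNA kit. The authors deposited a table of gene counts and a table of FPKM. Named in the submitters' processing notes, without roles, are GRCh38, featureCounts, HISAT2 and DESeq2 1.26.0; how reads were counted is otherwise not stated there. The deposited counts are whole numbers, but 55.2% of values from 1 to 20 are even and 2557 features carry assembly identifiers, so they were handled as estimated counts. The deposited FPKM, scaled by the authors to length and library size, were used for levels between genes.

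Genes were tested with edgeR 4.0.16 (quasi-likelihood, TMM, filterByExpr, group as the only term) in R 4.3.3 and Benjamini-Hochberg adjustment over 15432 genes at 0.05. CPM are TMM-scaled. Alternatives used limma 3.58.1 and DESeq2 1.42.0. The test was tested on 2 simulated sets. The rule for named members took 17: the 10 highest by FPKM, the 8 with the smallest p, SLC3A2 and SLC7A5, and the highest of each role. Other members are named as examples, after their values were seen. Members, lists and rules were chosen with earlier results of these data known. Replicate libraries all differed by more than sampling noise (chi-square over its degrees of freedom, 6.73 to 28.8). Only counting error enters the limits given for a 0. Coordinates came from GENCODE 29, matched for 39 of 39 members.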

Additional observations from a re-analysis of the deposited data

Results flagged for a closer look

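A check for single samples far from the rest of their group of 4 was made in 36 groups, the 17 named members and the ratio of SLC7A5 to SLC3A2 in LDL and control samples, and it found 4. Chance alone gives about 1 in 20 groups. SLC7A5 was at 818.2 CPM in control sample 2, against 1017 to 1037 CPM in the other control samples. SLC7A6 was also low in control sample 2, at 48.9 CPM against 59.4 to 61.5 CPM in the other control samples. SLC7A6 was at 56.2 CPM in LDL sample 1, against 53.1 to 53.6 CPM in the other LDL samples. SLC38A1 was at 158.7 CPM in control sample 4, against 180.2 to 183.0 CPM in the other control samples.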

How the results depend on the processing

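The 10 calls over all genes became 43 with DESeq2, 2 with the replicate number as a block, 248 without LDL samples 1 and 4, 5 with limma on log2(FPKM + 0.1) and 2 with log2(FPKM + 1) and no minimum, and ran from 2 to 149 with each sample left out. The number of members called stayed at 0 in every alternative except 1 without LDL samples 1 and 4, and 0 to 1 with each sample left out, where SLC7A1 was called. The members' median moved to -0.053 without LDL samples 1 and 4 and ran from 0.0069 to 0.071 with each sample left out. Without LDL samples 1 and 4 the log2 fold change also changed sign, among the 17 named members, for SLC1A5 (-0.0039), SLC36A4 (-0.032), SLC38A1 (-0.061), SLC38A2 (-0.013) and SLC43A3 (-0.14). With each sample left out it ran from -0.11 to 0.063 for SLC3A2, -0.087 to 0.048 for SLC7A7, -0.15 to 0.089 for SLC1A1, -0.031 to 0.015 for SLC38A10, -0.0015 to 0.12 for SLC1A5, -0.042 to 0.067 for SLC36A4 and -0.066 to 0.090 for SLC43A3; the cause was not tested. SLC7A1, SLC7A5, SLC7A6, SLC36A1, SLC38A6, SLC38A7, SLC38A9 and SLC43A2 kept their sign in all alternatives run. Outside the 17, SLC1A3 (-0.21) and SLC7A2 (-0.10) changed sign without LDL samples 1 and 4. The log2 difference of the SLC7A5 to SLC3A2 ratio was -0.20, and ran from -0.25 to -0.17 with each sample left out and to -0.27 without LDL samples 1 and 4. Samples with the same number did not deviate together (r from -0.105 to 0.018 for the 4 pairs), so the number was not taken as a pairing; with the replicate block 0 members were called. In place of the 19 members counted as expressed there were 20 at a mean of at least 0.5 FPKM and 16 under a stricter limit. By counts, a different measure, 25 passed the filter and 22 had at least 1 CPM in 4 samples.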
